A study of Mus musculus with 4 samples.

Results

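*Krt4*, *Tspan1*, *Aqp5*, *Ctse*, *Npnt* and *Emb* are 6 of the 31053 genes counted by droplet-based single-cell RNA sequencing in the mouse prostate. They were chosen by name, as genes already seen to mark luminal cells of the proximal ducts in these cells. Their higher levels in RFP+ than in RFP- luminal cells of the anterior prostate, and in the proximal cluster, are therefore given as a description, without a test. All 6 were found in each of the 4 UMI count matrices.

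In 3 runs, EPCAM+ epithelial cells were sorted from pooled prostates of adult P2-Runx1:RFP mice on the ICR (CD-1) background, older than 8 weeks. In this reporter line RFP is made from the proximal (P2) promoter of *Runx1*, so RFP+ and RFP- cells differ in the activity of that promoter. The cells came from the anterior lobe (AP), the dorsolateral lobe (DLP) and the ventral lobe (VP) of intact mice and, in runs 1 and 2, of mice castrated for more than 4 weeks, and each sorted population carried a lipid-bound (MULTI-seq) barcode. The explant library held urogenital sinus explants of ICR (CD-1) embryos, taken at E15.5, cultured with 10 µM dihydrotestosterone and collected at days 0, 1, 3 and 6. Each sort held basal and luminal cells, which were told apart by clustering without the 6 genes. Castrated lobes were pooled in run 1 and barcoded separately in run 2, and intact DLP RFP+ cells could be used from run 3 only. Mice were pooled within a run, so a run, not a mouse, is the replicate.

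The prostate ducts run from the urethra to distal tips. Distal luminal cells make the lobe-specific secretions and depend on androgen, whereas luminal cells near the urethra secrete little and share genes with stratified and urothelial epithelia. The 6 genes belong to different parts of the cell. *Krt4* encodes a type II keratin that pairs with *Krt13* in stratified epithelia that do not cornify. *Aqp5* encodes a water channel of exocrine glands, *Tspan1* a tetraspanin of the plasma membrane, and *Emb* (embigin) a membrane glycoprotein that carries monocarboxylate transporters such as *Slc16a7* to the cell surface. *Ctse* encodes cathepsin E, an aspartic protease of endosomes in epithelial and antigen-presenting cells. *Npnt* encodes nephronectin, a basement membrane protein bound by the integrin of *Itga8* and *Itgb1*.

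On GRCm38, with the GENCODE M21 annotation, all 6 are protein-coding genes. *Krt4* (ENSMUSG00000059668) lies at chr15:101918535-101924735 on the minus strand and *Aqp5* (ENSMUSG00000044217) on the same chromosome at chr15:99590782-99594829 on the plus strand. *Tspan1* (ENSMUSG00000028699) lies at chr4:116161869-116167601 on the minus strand, *Emb* (ENSMUSG00000021728) at chr13:117208536-117274415 on the plus strand, *Ctse* (ENSMUSG00000004552) at chr1:131638306-131675505 on the plus strand and *Npnt* (ENSMUSG00000040998) at chr3:132881745-132950291 on the minus strand. The 250 bases before the RefSeq start are shown for *Npnt*, whose RFP+ and RFP- levels in AP luminal-like cells did not overlap across runs, and for *Tspan1*, whose levels did. Both are on GRCm38.p6, minus strand, written 5′ to 3′, at chr3:132950292-132950541 for *Npnt* and chr4:116167599-116167848 for *Tspan1*.
Npnt: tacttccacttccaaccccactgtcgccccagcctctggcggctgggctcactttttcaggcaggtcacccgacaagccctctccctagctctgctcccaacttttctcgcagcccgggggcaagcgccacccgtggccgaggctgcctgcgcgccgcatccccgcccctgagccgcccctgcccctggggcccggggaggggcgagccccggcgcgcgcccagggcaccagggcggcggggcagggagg
Tspan1: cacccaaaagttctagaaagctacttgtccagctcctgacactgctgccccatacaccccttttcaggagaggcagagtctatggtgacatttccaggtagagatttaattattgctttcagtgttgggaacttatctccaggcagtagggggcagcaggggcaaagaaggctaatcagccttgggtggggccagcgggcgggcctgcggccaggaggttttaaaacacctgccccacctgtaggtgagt
No letters are in capitals because neither motif searched, on both strands, was found in them. The motifs were the core of RUNX sites (TGTGGT), held by 14% of all 32851 promoter windows of this length, and the androgen receptor half-site (AGAACA), held by 16.1%. GC made up 74% of the *Npnt* window and 53.6% of the *Tspan1* window. The last bases of the *Tspan1* window overlap the annotated gene, which ends at 116167601. The RefSeq windows of *Aqp5* and *Emb* overlap annotated exons in GENCODE M21 and are not shown, and those of *Krt4* and *Ctse* were not analysed here. The *Emb* window held 1 AGAACA, and the *Aqp5* window held neither motif. A second RefSeq window of *Npnt*, at chr3:132949815-132950064, held neither motif and is not shown.

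The libraries of runs 1 to 3 and of the explants held 2612, 6034, 3028 and 7474 cells with 35051876 to 121090404 UMIs in all, and 0 to 6 cell barcodes were shared by any pair of libraries. Between 824 and 5198 cells per library passed the filters and carried a single barcode, with medians of 9750 to 14784.5 UMIs per cell. The adult cells comprised 2076 basal-like and 2004 luminal-like cells, and 356 hematopoietic-like cells led the rest. Levels are given in CPM (UMIs of a gene per 1000000 UMIs of the summed cells). *Krt7*, one of the markers from which the proximal state was named, along with *Psca*, *Runx1* and *Clu*, was at 413 ± 126 CPM in luminal-like AP RFP+ cells (SD, n = 3 runs) and 46.3 ± 39.5 CPM in AP RFP- cells.

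In luminal-like cells of the intact AP, UMIs were summed within each run, and 5 of the 6 genes had all 3 RFP+ libraries above all 3 RFP- libraries. Across all 10464 genes tested in this contrast, 23.8% were called different and 12.8% higher (edgeR's quasi-likelihood test, Benjamini-Hochberg adjusted p under 0.05). A call is another measure than full separation of the libraries, whose share over all genes was not counted. Nothing is read from the count of 5, since the genes were chosen for it. *Npnt* varied least between runs, at 43.5, 42.7 and 50.3 CPM in RFP+ cells and 2.57, 2.35 and 1.46 CPM in RFP- cells of runs 1, 2 and 3. *Krt4* stood at 486, 351 and 237 CPM against 80.3, 27.1 and 4.38 CPM. The lowest RFP+ library was above the highest RFP- library for both genes.

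*Aqp5* gave 337, 207 and 172 CPM in AP RFP+ cells, and 32.8, 2.35 and 0 CPM in AP RFP- cells, where a count of 3 UMIs in run 3 would be 4.38 CPM. *Emb* gave 119, 101 and 166 CPM against 14.1, 9.42 and 5.84 CPM. *Ctse* gave 37.4, 19.6 and 27.1 CPM against 3.86, 10.6 and 2.92 CPM. The RFP+ and RFP- libraries of these genes did not overlap, but the 10.6 CPM of *Ctse* in RFP- cells of run 2 came from 2.72% of the cells. *Tspan1* was the exception, at 3000, 1209 and 1283 CPM in RFP+ cells and 1820, 1117 and 836 CPM in RFP- cells. It was higher in RFP+ cells within each run, but the RFP- library of run 1 was above the RFP+ libraries of runs 2 and 3.

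On the log2(CPM + 1) scale the mean RFP+ minus RFP- difference in AP luminal-like cells was 5.57 (SD 2.08, n = 3 runs) for *Aqp5*, 3.91 (SD 0.41) for *Npnt*, 3.90 (SD 1.46) for *Krt4*, 3.63 (SD 0.86) for *Emb*, 2.22 (SD 1.21) for *Ctse* and 0.48 (SD 0.32) for *Tspan1*. AP RFP+ luminal-like cells also held more UMIs of the markers listed for other cell types. The 7 hematopoietic markers summed to 175, 239 and 20.4 CPM in RFP+ cells, with 6, 6 and 1 of them detected and *Cd3d* at 0 in every library, and to 6.43, 8.53 and 0 CPM in RFP- cells, with 2, 3 and 0 detected. The 6 basal markers summed to 2810, 1617 and 1055 CPM against 558, 258 and 39.4 CPM. They include *Krt15*, which was also among the leading genes of a proximal luminal-like cluster of 198 cells, nearly all from run 1. The part of RNA from basal cells in these sums was not tested. In the basal-like cells themselves *Krt4* reached at most 24.7 CPM, *Aqp5* 7.30 CPM, *Ctse* 3.91 CPM and *Npnt* 20.3 CPM. Basal-like levels of *Krt4*, *Aqp5*, *Ctse* and *Npnt* were thus below every AP RFP+ luminal-like library. The part of the hematopoietic markers in the levels of *Ctse* and *Emb*, which hematopoietic-like cells also held, was not tested.

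**Figure D1:**
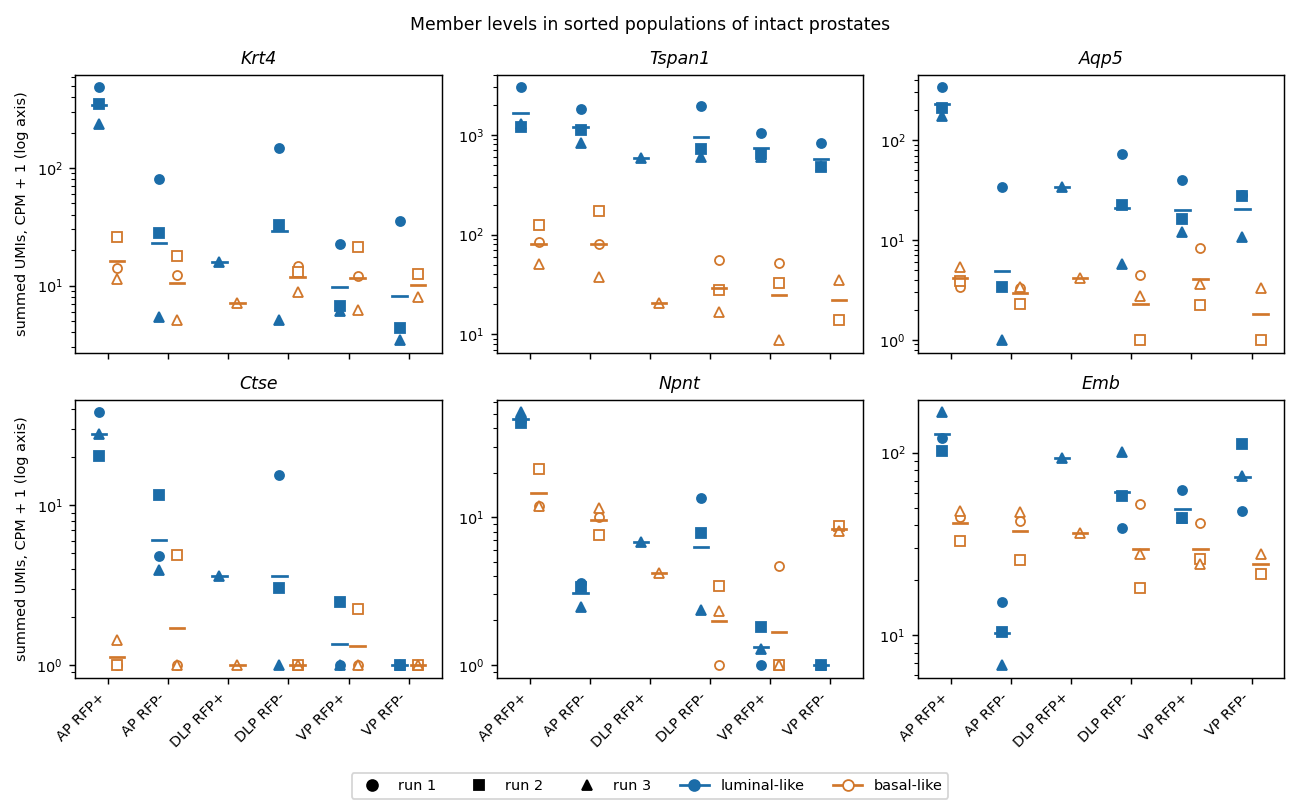
Level of each of the 6 genes in intact cells by sorted population, as CPM + 1 of UMIs summed per run, on a log axis. Filled blue marks are luminal-like and open orange marks basal-like cells, circles, squares and triangles are runs 1, 2 and 3, and bars are means of log2(CPM + 1) over runs. *Npnt* in AP RFP+ luminal-like cells sits at 42.7 to 50.3 CPM and at 1.46 to 2.57 CPM in AP RFP- cells, while *Tspan1* is at 473 CPM or more in all luminal-like populations.

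The lobes ordered the 6 genes differently. Among luminal-like populations other than AP RFP+, *Krt4* was highest in DLP RFP- cells by its mean, at 148.1, 31.5 and 4.09 CPM in runs 1, 2 and 3 (61.2 ± 76.5 CPM, SD, n = 3). AP RFP- cells followed at 37.3 ± 39.0 CPM, DLP RFP+ cells at 14.9 CPM in run 3, the only run that had them, VP RFP- cells at 13.3 ± 18.1 CPM and VP RFP+ cells at 10.8 ± 9.40 CPM. None of these neighbours differed beyond the spread over runs, and only the step down from AP RFP+ cells (358 ± 125 CPM) did.

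For *Aqp5*, AP RFP+ cells (239 ± 86.9 CPM) were followed by DLP RFP+ cells at 32.7 CPM and DLP RFP- cells at 70.9, 21.2 and 4.77 CPM in runs 1, 2 and 3. VP RFP+ cells held 39.1, 15.1 and 11.0 CPM, VP RFP- cells 27.0, 26.7 and 9.79 CPM, and AP RFP- cells were lowest by their mean of 11.7 ± 18.3 CPM. Populations below AP RFP+ overlapped one another. *Tspan1* descended in small steps from AP RFP+ (1831 ± 1013 CPM) through AP RFP- (1258 ± 507), DLP RFP- (1087 ± 738) and VP RFP+ (761 ± 246) to VP RFP- (594 ± 199) and DLP RFP+ cells (586 CPM, run 3). No neighbours in that order were separated. The order is in plain CPM, where the median log2 fold change of all genes, AP over VP RFP- cells, was 1.03. With TMM factors that median was 0.06.

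*Ctse* and *Npnt* were close to absent from the VP. *Ctse* had 0 UMIs in VP RFP- cells of all 3 runs, where 3 UMIs would be 5.41, 1.00 and 2.45 CPM, and gave 0, 1.49 and 0 CPM in VP RFP+ cells, with the UMIs of run 2 in 1.09% of the cells. *Npnt* likewise had 0 UMIs in VP RFP- cells of every run, and gave 0, 0.802 and 0.29 CPM in VP RFP+ cells. Both genes were counted in the DLP: *Ctse* at 14.6, 2.05 and 0 CPM and *Npnt* at 12.5, 6.84 and 1.36 CPM in RFP- cells, and at 2.59 and 5.83 CPM in the RFP+ cells of run 3. The DLP RFP- libraries overlapped those of AP RFP- cells for both genes.

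*Emb* had another order. Below AP RFP+ cells (128 ± 33.5 CPM) came DLP RFP+ cells at 92.6 CPM in run 3, VP RFP- cells at 46.9, 111 and 73.4 CPM, DLP RFP- cells at 37.5, 56.8 and 100.1 CPM, and VP RFP+ cells at 61.5, 42.9 and 42.5 CPM. AP RFP- cells were lowest, at 14.1, 9.42 and 5.84 CPM. The ranges of the DLP and VP populations overlapped, whereas every AP RFP- library was below every other luminal-like library.

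The 6 genes were tested with edgeR in 5 contrasts other than the one for which they were chosen, on summed UMIs, with all intact sums of a class in 1 model. The contrasts of AP RFP- with VP and DLP RFP- cells reuse the AP RFP- libraries, whose levels entered that choice. Their results for the 6 genes are therefore not independent of it. In RFP- luminal-like cells, *Emb* was lower in the AP than in the VP by 3.93 on the log2 scale (log2 fold change -3.93, SE 0.42, adjusted p = 2.08e-05, edgeR), at 14.1, 9.42 and 5.84 CPM against 46.9, 111 and 73.4 CPM. It was the only one of the 6 called in this contrast, in which 15.4% of 10464 genes were called, 7.86% higher and 7.54% lower. *Emb* was also lower in AP than in DLP RFP- luminal-like cells (log2 fold change -2.81, SE 0.42, adjusted p = 0.00337, edgeR), again alone of the 6, with 1.02% of genes called, 0.468% higher and 0.554% lower. Both contrasts share the AP RFP- libraries. Without run 2 the AP to DLP difference of *Emb* was -2.85 (adjusted p = 0.233, edgeR) and without run 3 it was -2.27 (adjusted p = 0.146, edgeR), and neither was called. Without run 1 it was called, at -3.26 (adjusted p = 0.00216, edgeR).

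The scaling of these libraries changed the background of the AP to VP contrast. With TMM factors, 822 genes were called higher and 789 lower in AP RFP- cells, and the median log2 fold change of all genes was 0.06. With plain library totals the split was 5633 to 270 and the median was 1.03, and *Emb* was still lower, at -2.95 (adjusted p = 5.04e-05, edgeR). *Aqp5* was at -1.82 (SE 0.87, adjusted p = 0.185, edgeR) in RFP- AP against VP cells. With run as a block it was called, at -2.26 (adjusted p = 0.0103, edgeR). *Krt4* (1.24, SE 1.11) and *Tspan1* (0.12, SE 0.38) were not called. *Ctse* (adjusted p = 0.0874) and *Npnt* (adjusted p = 0.102, edgeR) were not called either, with no UMI in any VP RFP- library and 2.92 to 10.6 CPM and 1.46 to 2.57 CPM in the AP RFP- libraries. Both were called with plain totals (adjusted p = 0.0105 and 0.0103, edgeR).

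In the VP none of the 6 genes was called between luminal-like RFP+ and RFP- cells, where 0.315% of 10464 genes were called, 0.0191% higher and 0.296% lower. In counts simulated for this contrast 37% of 2-fold changes of better-counted genes were found, so changes of that size could be missed. Genes with few UMIs were not simulated, and larger changes of these could be missed. The nearest to the threshold was *Emb*, at -0.72 (SE 0.34, adjusted p = 0.820, edgeR), and *Krt4* (0.23, SE 1.15), *Tspan1* (0.38, SE 0.38) and *Aqp5* (-0.03, SE 0.76) had changes smaller than or equal to their errors. The VP RFP- sum of run 1 held only 10 cells.

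In basal-like cells 4 of the 6 genes passed the filter on low counts, and *Aqp5* and *Ctse* did not. Between AP RFP+ and RFP- basal-like cells none of the 4 was called, and neither was any of the 9003 genes tested (0%, with 96 at an unadjusted p under 0.05; DESeq2 called 0 and the fit with run as a block 9). *Krt4* was at 13.0, 24.7 and 10.5 CPM in RFP+ and 11.4, 17 and 4.12 CPM in RFP- basal-like cells (log2 fold change 0.65, SE 0.47). *Emb* was at 43.2, 31.9 and 47.0 CPM against 40.9, 24.8 and 46.5 CPM (0.09, SE 0.29). *Krt4*, *Emb* and *Npnt* (0.58, SE 0.45) were a little higher in the RFP+ cells of each run, by less than the spread between runs, and *Tspan1* (-0.15, SE 0.48) was on either side depending on the run.

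Between AP and VP RFP+ basal-like cells, 0.555% of 9003 genes were called (0.178% higher and 0.378% lower) and none of the 4 was. *Tspan1* stood at 83.0, 123 and 50.1 CPM in the AP against 51.1, 31.4 and 7.82 CPM in the VP (log2 fold change 1.51, SE 0.59, adjusted p = 0.454, edgeR). With run as a block it was called (1.65, adjusted p = 0.00727, edgeR), in a fit that called 530 genes in place of 50. *Npnt* stood at 11.0, 20.3 and 10.9 CPM in the AP against 3.65, 0 and 0 CPM in the VP, where run 1 held a single UMI and 3 UMIs would be 3.77 CPM in run 2 and 7.82 CPM in run 3 (adjusted p = 0.0545, or 0.00286 with run as a block, edgeR). For both genes the AP library was above the VP library in each run. *Krt4* (0.15, SE 0.51) and *Emb* (0.51, SE 0.34) were not called under either fit.

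Luminal-like cells fell into clusters that the sorted populations held in different shares. A proximal (Lum-D-like) class, named from markers that included *Psca*, *Runx1*, *Clu* and *Krt7*, held 87.3%, 80.4% and 89.4% of AP RFP+ luminal-like cells in runs 1, 2 and 3, and 7.89%, 4.76% and 0% of AP RFP- cells. Runs were not integrated, and the class joins 2 clusters: one of 198 cells, 196 of them from run 1, and one of 294 cells, 8 of them from run 1. It held 32%, 10.8% and 0% of DLP RFP- cells, 11.8%, 3.80% and 4.79% of VP RFP+ cells, 20%, 0% and 0% of VP RFP- cells, and 26.2% of the DLP RFP+ cells of run 3. In RFP- cells of the AP and DLP the share of proximal cells and the levels of *Krt4* and *Aqp5* were both highest in run 1. The part of that share in the RFP- levels was not tested.

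Within the intact proximal class, summed over all sorts, *Krt4* was at 604, 605 and 262 CPM in runs 1, 2 and 3, *Aqp5* at 418, 335 and 222 CPM and *Npnt* at 49.4, 70.3 and 60.2 CPM. In the cluster led by *Tgm4* and *Pbsn*, which held most AP RFP- cells, *Krt4* was at 2.23 to 4.54 CPM, *Aqp5* at 0.55 to 0.96 CPM and *Npnt* at 0.64 to 1.82 CPM. In the cluster led by *Sbp* and *Spink1*, which held most VP RFP+ cells, the same genes were at 1.94 to 10.8, 8.70 to 13.2 and 0 to 0.54 CPM. *Krt4*, *Aqp5* and *Npnt* were thus many times higher in proximal cells than in either distal cluster in every run. *Ctse* had the same pattern, at 44.1, 66.3 and 30.4 CPM in proximal cells and at most 1.36 CPM in both distal clusters.

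*Tspan1* and *Emb* were also counted at high levels in some distal clusters. *Tspan1* stood at 3318, 1492 and 1389 CPM in proximal cells, but at 1730, 1209 and 800 CPM in the *Tgm4*- and *Pbsn*-led cluster and at 927, 592 and 571 CPM in the *Sbp*- and *Spink1*-led cluster. Per cell, without scaling to the total, proximal cells held 52.4, 17.9 and 15.7 *Tspan1* UMIs and *Sbp*- and *Spink1*-led cells 55.6, 29.1 and 31.2, so that in each run the order of these 2 clusters turned. *Tgm4*- and *Pbsn*-led cells held 35.9, 23.0 and 13.0, which was above the proximal cells in run 2 and below them in runs 1 and 3. *Emb* stood at 138, 129 and 182 CPM in proximal cells, at 8.18, 4.47 and 7.75 CPM in the *Tgm4*- and *Pbsn*-led cluster and at 53.0, 40.7 and 49.8 CPM in the *Sbp*- and *Spink1*-led cluster. In the cluster led by *Msmb* and *Defb50*, from runs 2 and 3, *Emb* reached 298 and 159 CPM, above the proximal level in run 2 and below it in run 3. That cluster also held 71.1 and 13.1 CPM of *Aqp5*, with 0 UMIs of *Ctse*.

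**Figure D2:**
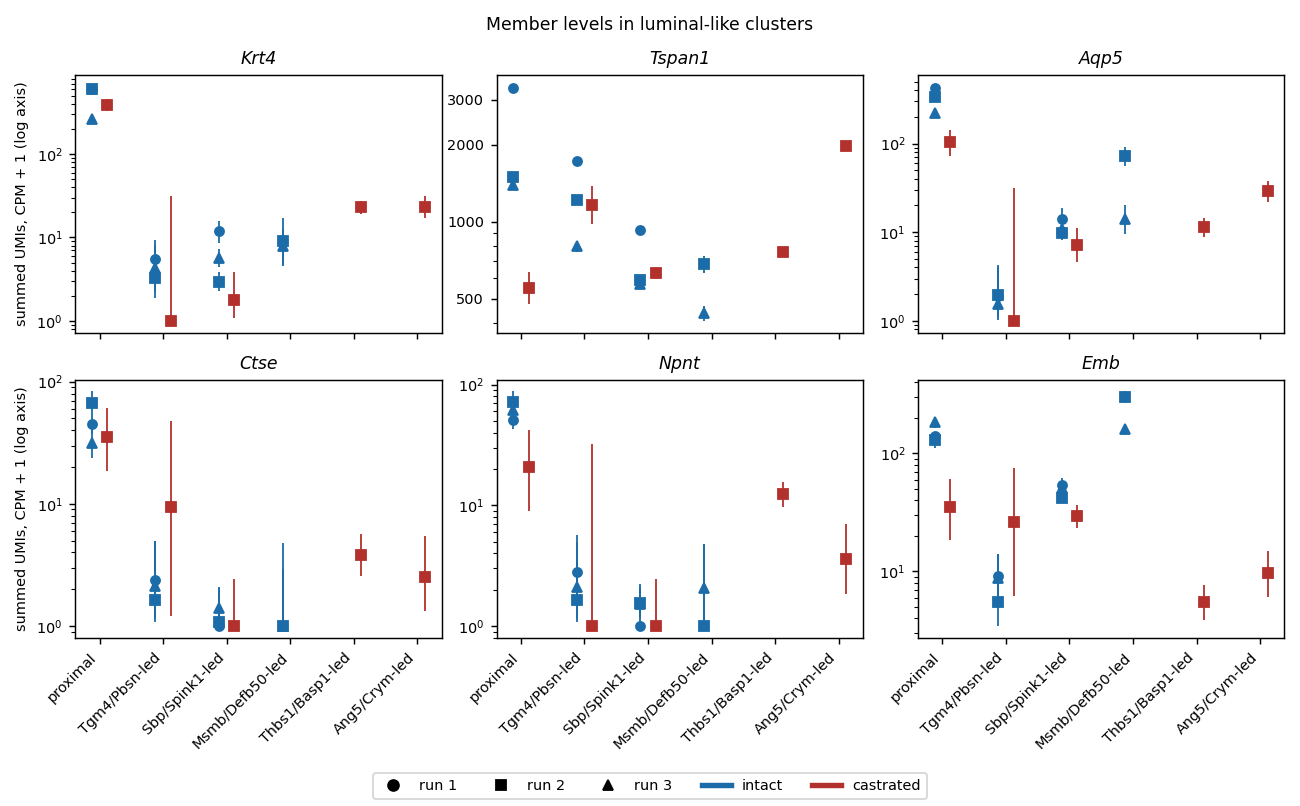
Level of each gene in the luminal-like clusters, as CPM + 1 on a log axis, by run, for intact (blue) and castrated (red) cells, with 95% exact Poisson intervals that cover counting error only. *Krt4*, *Aqp5*, *Ctse* and *Npnt* are higher in intact proximal cells than in the other intact clusters in every run, whereas *Tspan1* is at 571 CPM or more in the intact *Tgm4*- and *Sbp*-led clusters and *Emb* in the *Msmb*- and *Defb50*-led cluster of run 2 is at 298 CPM.

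Proximal cells were also counted from the DLP. In run 3, 17 proximal cells from DLP RFP+ sorts held 130 CPM of *Krt4* (95% exact Poisson interval 85.1 to 191), against 291 CPM (264 to 321) in 127 proximal cells from AP RFP+ sorts. *Emb* was at 110 (69.1 to 167) against 202 CPM (179 to 227). These intervals did not overlap, whereas those of *Aqp5* (266 against 213 CPM), *Npnt* (70.1 against 62.5 CPM), *Ctse* (25 against 33 CPM) and *Tspan1* (1463 against 1351 CPM) did. Each side is a single library, so the differences between lobes have no replicate.

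Genes that work with the 6 were followed in lists of keratins, tetraspanins, aquaporins, cathepsins, integrins and embigin partners. In AP luminal-like cells, RFP+ against RFP-, 12.8% of all genes were called higher and 11% lower with TMM factors, and the split of 1337 higher to 1152 lower became 1382 to 634 with plain totals. Of the 10 keratins tested (of 11 listed) 3 rose and none fell, with a median log2 fold change of 1.41 against 0.01 over all genes. The simple-epithelium keratins *Krt8* (1.47, SE 0.31, adjusted p = 0.00276) and *Krt19* (1.77, SE 0.41, adjusted p = 0.00535) rose, as did *Krt7* (2.91, SE 0.86, adjusted p = 0.0219, edgeR), which is also a proximal marker. *Krt13*, the partner of *Krt4*, was at 6.03 ± 4.36 CPM in RFP+ and 1.499 ± 2.60 CPM in RFP- cells (adjusted p = 0.195, edgeR).

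Of the 16 tetraspanins tested (of 19) 5 rose and 1 fell, with a median of 0.53. The largest rises were those of *Tspan9* (3.96), *Tspan8*, *Tspan33* (2.97) and *Cd9*. *Tspan8* rose by 3.14 on the log2 scale (SE 0.74, adjusted p = 0.00585, edgeR), from 192 ± 185 to 1842 ± 947 CPM, and *Cd9* by 2.21 (SE 0.40, adjusted p = 0.00100, edgeR). *Tspan13* fell by 1.48 on the log2 scale (log2 fold change -1.48, SE 0.16, adjusted p = 3.75e-05, edgeR), at 118 ± 18.2 CPM in RFP+ and 300.4 ± 37.2 CPM in RFP- cells, and is named as the only one that fell, after its values were seen. Tetraspanins therefore moved in both directions, and *Tspan1* itself overlapped. None of the 3 aquaporins tested (of 10) was called.

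Of the 13 cathepsins and related genes tested (of 15) 5 rose and 1 fell, with a median of 0.74. The cysteine proteases *Ctsh* (2.06, SE 0.30, adjusted p = 2.02e-04) and *Ctsl* (1.42, SE 0.27, adjusted p = 0.00138, edgeR) rose, as did *Ctso* (0.85), and *Ctsc*, which activates serine proteases of granules, fell (-1.12, SE 0.29, adjusted p = 0.0113, edgeR). For *Npnt*, 3 of the 5 integrin and related genes tested (of 10) rose, with a median of 0.76: *Itgb8* from 1.81 ± 2.89 to 30.4 ± 3.1 CPM (3.98, SE 0.65, adjusted p = 4.84e-04, edgeR), *Itgb6* (3.15, SE 0.48, adjusted p = 2.77e-04, edgeR) and *Itgb1* (0.76, SE 0.24, adjusted p = 0.0331, edgeR). *Itga8*, the alpha subunit of the nephronectin receptor, had too few UMIs to be tested. Of the 3 embigin partners tested (of 6), the related chaperones *Nptn* (1.12, SE 0.26, adjusted p = 0.00604) and *Bsg* (0.75, SE 0.20, adjusted p = 0.0111, edgeR) rose, and the transporter *Slc16a7* was at -0.52 (SE 0.20, adjusted p = 0.0800, edgeR).

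*Slc16a7*, the transporter that embigin carries, was high in AP RFP- cells, where *Emb* was low. It stood at 85.0 ± 1.97 CPM in the AP and 11.1 ± 3.08 CPM in the VP (log2 fold change 2.11, SE 0.26, adjusted p = 6.92e-05, edgeR), in the opposite direction to *Emb*. *Bsg* was called lower in the AP by the TMM fit (-0.88, SE 0.20, adjusted p = 0.00665, edgeR), but its mean in plain CPM was on the other side, at 469 ± 110 in the AP and 443 ± 58.0 in the VP. Between AP and DLP RFP- cells, *Slc16a7* was at 0.16 (SE 0.21, adjusted p = 0.886, edgeR) while *Emb* was lower in the AP. *Aqp8*, another water channel, was counted in VP RFP- cells at 16.9 ± 5.42 CPM, against 0.486 ± 0.842 CPM in AP RFP- and 0.267 ± 0.463 CPM in VP RFP+ cells, and was called lower in both of these contrasts (adjusted p = 0.00146 and 0.0175, edgeR), which share the VP RFP- libraries. Of the other lists in the AP to VP contrast, 2 tetraspanins were called higher (*Tspan15*, 1.73, and *Tspan12*, 0.98) and 2 lower (*Tspan3*, -1.30, and *Cd63*, -0.85). Of the cathepsins 3 were called higher and 3 lower, with *Ctsc* at 2.17, *Ctsl* at -2.38, *Ctsh* at -1.88 and *Ctsz* at -1.36. The mean of *Cd63* in plain CPM was on the other side, at 296 in the AP and 270.3 in the VP. No keratin or integrin was called. None of the 6 lists had a called gene in the basal-like contrasts or between AP and DLP RFP- cells.

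To see whether single cells carried several of the 6 genes, each cell was thinned to 5000 UMIs. The share of AP RFP+ luminal-like cells with a UMI of *Krt4* was then 72.2%, 62.2% and 52.0% in runs 1, 2 and 3 (80%, 71.6% and 64.1% before thinning), against 6.07% to 9.09% of AP RFP+ basal-like cells. *Aqp5* was found in 60.6%, 47.8% and 43.9% of luminal-like cells (77.1%, 60.8% and 58.5% before thinning) and in 0% to 2.13% of basal-like cells. *Emb* was found in 36.4%, 44.4% and 61% of luminal-like but also in 19.2% to 27.7% of basal-like cells. *Npnt* (21.2% to 24.4%) and *Ctse* (5.56% to 13.1%) were in a minority of the luminal-like cells at this depth, and *Tspan1* in 97.8% to 100% of them. Of these cells, 7, 12 and 19 were left out as too shallow.

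The mean number of the 6 genes found per AP RFP+ luminal-like cell was 3.04, 2.81 and 2.89 in runs 1, 2 and 3, and 34.3%, 34.4% and 31.7% of the cells held at least 4. A single cell in each run held all 6. AP RFP- cells held 1.23, 1.09 and 1.00 genes on average, which was mostly *Tspan1*, and AP RFP+ basal-like cells 0.631, 0.626 and 0.477. In the DLP and VP the mean was highest in run 1, at 1.77 in DLP RFP- cells and 1.70 in VP RFP- cells, where 13.6% and 20% of 22 and 10 cells held at least 4, and DLP RFP+ cells of run 3 held 1.56, with 4.69% at 4 or more. In every run the mean and the share with at least 4 were highest in AP RFP+ luminal-like cells among these populations.

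Pairs were compared with the share that the product of the 2 single shares would give. Of the 15 pairs, 5 were above that product in all 3 runs and none was below it in all 3, and the mean ratio over runs had a median of 1.12 over pairs. The 5 pairs with *Tspan1*, which was in nearly every cell, are held close to 1 for that reason (mean ratios of 1.00 to 1.01), and the 5 pairs above the product are among the other 10. The *Tspan1* pairs count in the median over pairs and pull it toward 1. *Krt4* and *Aqp5* were found together in 50.5%, 37.8% and 26.0% of cells against products of 43.8%, 29.7% and 22.8%, ratios of 1.15, 1.27 and 1.14. The other 4 pairs were *Krt4* with *Ctse* (mean ratio 1.34), *Aqp5* with *Emb* (1.10), *Ctse* with *Emb* (1.37) and *Npnt* with *Emb* (1.21). Within the proximal class the median ratio over the 15 pairs was 1.00, a value set by the pairs with *Tspan1*. *Krt4* and *Aqp5* gave 1.03, 1.09 and 1.06 there. The mean ratio was 1.18 for *Krt4* with *Ctse*, 0.998 for *Aqp5* with *Emb*, 1.21 for *Ctse* with *Emb* and 1.07 for *Npnt* with *Emb*. *Krt4* and *Emb* were there below their product in every run, with a mean ratio of 0.951. Most ratios were thus above 1 in the sort as a whole and nearer to 1 among proximal cells alone. The ratio of *Ctse* with *Npnt*, 1.98, rested on 3 to 6 cells per run.

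**Figure D3:**
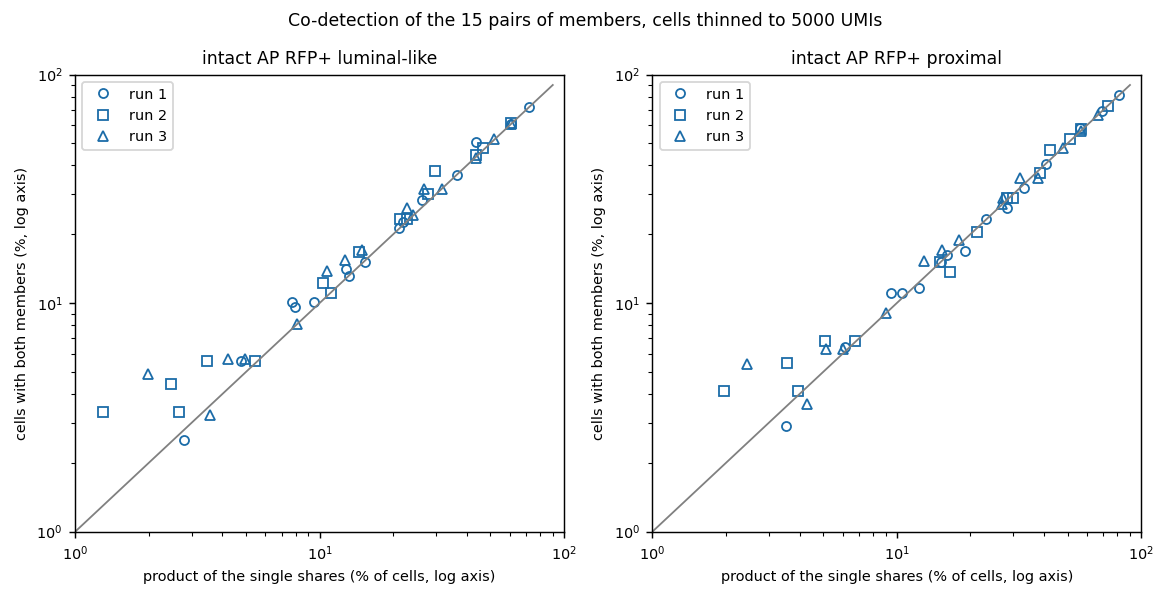
Share of cells with a UMI of both genes of a pair (y axis, %) against the product of the 2 single shares (x axis, %), for 15 pairs in 3 runs, with cells thinned to 5000 UMIs. On the left, all AP RFP+ luminal-like cells, where 5 pairs lie above the line of equality in every run. On the right, AP RFP+ proximal cells, where 3 pairs do and points lie closer to the line.

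Castration was compared in run 2, where lobes were kept apart, with 1 library on each side and therefore no test. In AP RFP+ luminal-like cells all 6 genes were lower after castration, by log2(CPM + 1) differences of -4.01 for *Aqp5*, -3.42 for *Krt4*, -3.31 for *Emb*, -2.30 for *Npnt*, -1.86 for *Ctse* and -0.81 for *Tspan1*. *Krt4* stood at 31.9 CPM (95% exact Poisson interval 26.2 to 38.5) in castrated and 351 CPM (324 to 381) in intact cells, and *Emb* at 9.29 CPM (6.35 to 13.1) against 101 CPM (86.2 to 117). *Ctse* was at 4.64 CPM (2.65 to 7.54) against 19.6 CPM (13.5 to 27.5). The intervals, which cover counting error only, did not overlap for any of the 6.

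The makeup of the sort differed between the treatments. Proximal cells were 16 of 194 AP RFP+ luminal-like cells (8.25%) after castration and 82 of 102 (80.4%) in intact mice, and 161 of the 194 lay in a cluster led by *Thbs1* and *Basp1*. That cluster held 21.9 CPM of *Krt4*, 10.5 CPM of *Aqp5*, 11.4 CPM of *Npnt*, 2.81 CPM of *Ctse* and 4.49 CPM of *Emb*. Within the proximal cells of the AP RFP+ sort alone, *Krt4* was at 395 CPM (306 to 501) in castrated and 633 CPM (583 to 687) in intact cells, *Tspan1* at 536 (431 to 658) against 1540 CPM (1461 to 1622) and *Aqp5* at 112 (67.4 to 175) against 363 CPM (325 to 404). *Npnt* was at 17.7 (3.64 to 51.6) against 72.4 CPM (56.1 to 92.0), from 3 UMIs in castrated cells, and *Emb* at 53.0 (24.2 to 101) against 151 CPM (127 to 179). Within run 2 these 5 genes were thus lower in the 16 castrated proximal cells too. For *Krt4* the difference lay within the spread between intact runs, since intact AP RFP+ proximal cells of run 3 held 291 CPM. The paper reports no change of *Krt4* with castration in its Lum-D cluster, and a decrease of *Tspan1*. Between castrated and intact proximal cells of run 2, *Krt4*, *Aqp5* and *Emb* stood closer together than in the whole sort, and *Tspan1* stood further apart. *Ctse* was at 41.2 CPM (16.6 to 84.9) against 34.6 CPM (23.7 to 48.8), and its intervals overlapped.

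In the VP, RFP+ luminal-like cells had another pattern. *Krt4* was at 28.7 CPM (22.4 to 36.2) in castrated and 5.73 CPM (4.25 to 7.56) in intact cells, *Tspan1* at 1689 (1638 to 1741) against 647 CPM (630 to 664) and *Aqp5* at 27.1 (21.0 to 34.4) against 15.1 CPM (12.7 to 17.9). *Emb* was lower, at 10.9 CPM (7.19 to 15.9) against 42.9 CPM (38.6 to 47.4). Here 104 of 127 castrated cells lay in a cluster led by *Ang5* and *Crym*, and 170 of 184 intact cells in that led by *Sbp* and *Spink1*. In AP RFP- cells *Aqp5* was at 15.3 CPM in 51 castrated cells and 2.35 CPM in intact cells, and *Krt4* at 21.5 and 27.1 CPM. The pooled castrated RFP+ cells of run 1 were 11 luminal-like cells, with 132 CPM of *Krt4*, 48.8 CPM of *Aqp5* and 9.75 CPM of *Emb*; the intact cells of that run were sorted by lobe, so no comparison was made. After castration no AP RFP+ cell of 186 thinned to 5000 UMIs held 4 or more of the 6 genes, and the mean was 1.11.

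**Figure D4:**
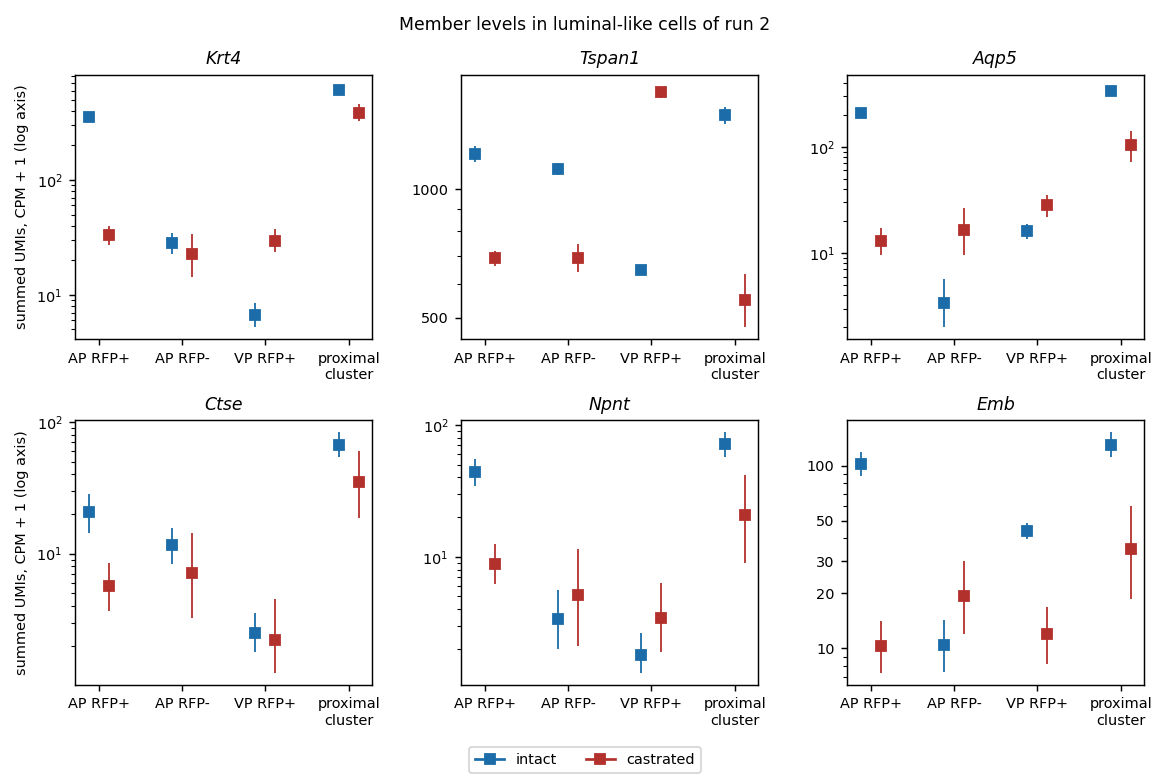
Levels of the 6 genes in run 2, as CPM + 1 on a log axis, in intact and castrated luminal-like cells of the AP RFP+, AP RFP- and VP RFP+ sorts and in the proximal class over all sorts (34 castrated and 103 intact cells), with 95% exact Poisson intervals. All 6 genes are lower after castration in AP RFP+ cells. In VP RFP+ cells *Krt4*, *Tspan1* and *Aqp5* are higher in CPM, where most castrated cells lie in a cluster with fewer UMIs per cell.

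In the explants, prostatic-type epithelial cells (465, 469, 1041 and 2056 cells at days 0, 1, 3 and 6) held *Krt4*, *Tspan1*, *Npnt* and *Emb* at day 0 and almost no *Aqp5* or *Ctse* at any day. This is 1 library, so its days have no replicate. *Krt4* stood at 107, 132, 111 and 30.1 CPM at days 0, 1, 3 and 6. *Npnt* was highest at day 0, at 78.6 CPM, and then stood at 39.4, 36.6 and 34.8 CPM. *Tspan1* peaked at day 1, at 51.6, 128, 83.4 and 55.2 CPM. *Emb* kept to 29.95, 24.1, 23.4 and 23.0 CPM. *Aqp5* was at 0.253 CPM (0.0522 to 0.740) at day 0 and 2.76 CPM (2.20 to 3.41) at day 6, and *Ctse* at 3.38 CPM (2.41 to 4.6) and 0.551 CPM (0.321 to 0.882).

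From day 0 to day 6 the log2(CPM + 1) differences were -1.80 for *Krt4*, -1.50 for *Ctse*, -1.15 for *Npnt*, -0.36 for *Emb*, 0.10 for *Tspan1* and 1.58 for *Aqp5*. The 6 genes thus did not move together in culture. The class was made of different clusters at these days: 403 of the 465 day 0 cells lay in a cluster with no cell of day 6, so most of the day 0 cells have no counterpart cluster at day 6. *Krt4* stood above the level of the class in a prostatic-type cluster led by *Psca* and *Nupr1*, whose marker score was only a little above its urothelial score. This cluster held 903 CPM of *Krt4* at day 1 (21 cells), 566 CPM at day 3 (147 cells) and 180 CPM at day 6, with 222, 202 and 108 CPM of *Tspan1*. At days 0 and 1 it had 2 and 21 cells, whereas 173 and 170 prostatic-type cells held a *Krt4* UMI. Most cells with *Krt4* at those days thus lay in other clusters. In that cluster *Aqp5* was at most 4.21 CPM, so high *Krt4* came there without the *Aqp5* found beside it in adult AP RFP+ cells.

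**Figure D5:**
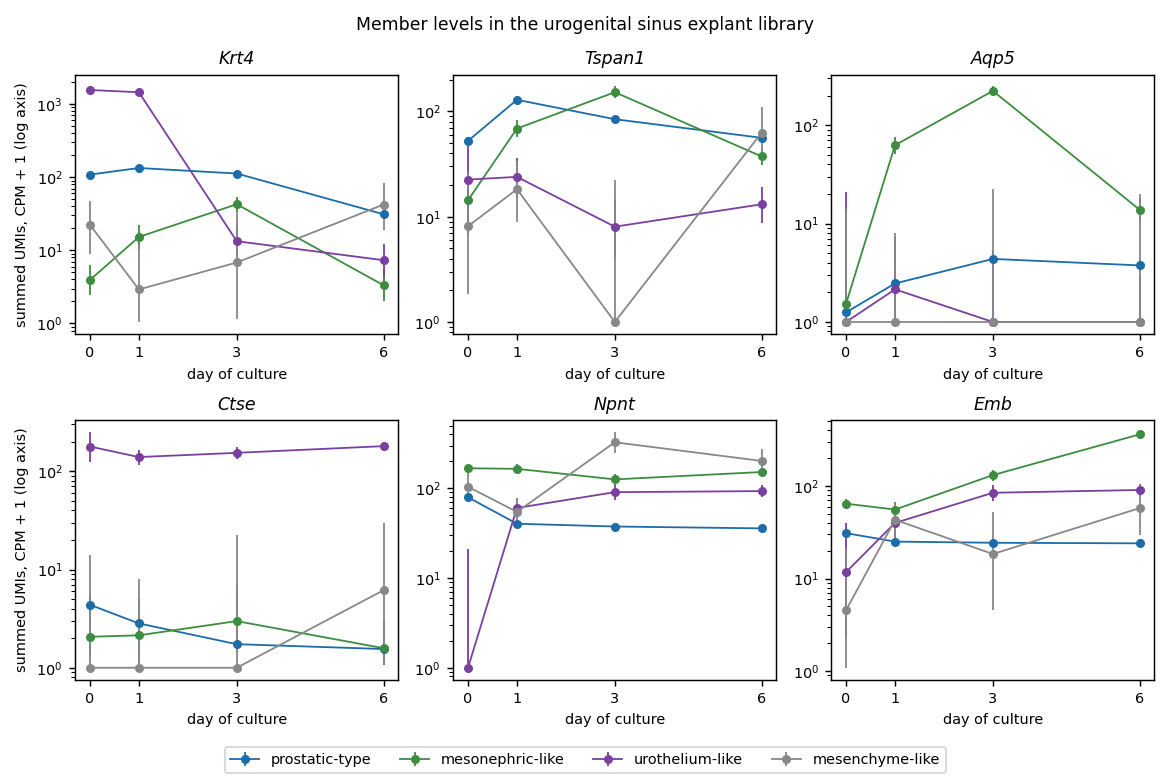
Levels of the 6 genes in the explants by day of culture (0, 1, 3 and 6), as CPM + 1 on a log axis, for 4 cell classes, with 95% exact Poisson intervals. In prostatic-type cells *Krt4* is at 107 CPM at day 0 and 30.1 CPM at day 6, while *Emb* in mesonephric-like cells is at 63.5 CPM at day 0 and 360 CPM at day 6. Most day 0 cells of the former and most day 6 cells of the latter lie in clusters without cells of the other day.

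Other explant classes held the genes in other combinations. Urothelium-like cells held *Krt4* at 1555 and 1447 CPM at days 0 and 1 and at 12.3 and 6.33 CPM at days 3 and 6, and *Ctse* at 178, 139, 153 and 179 CPM throughout. Of the 1264 *Krt4* UMIs at day 1, 1246 came from 17 cells of a cluster led by *Psca*, *Clca1* and *Upk1a*, at 4571 CPM. That cluster held 6 of the 10 cells of day 0 and none of days 3 and 6, so the lower levels of the class at those days are those of its other cluster. Mesonephric-like cells, the class of the ducts that join the urogenital sinus, held *Emb* at 63.5, 54.7, 130 and 360 CPM and *Aqp5* at 0.53, 61.5, 222 and 12.8 CPM. Of the 277 cells of this class at day 6, 224 lay in a cluster with no cell of days 0 and 1. The levels of the class at these days are thus those of different clusters. A mesonephric-like cluster of 15, 45 and 21 cells at days 1, 3 and 6 held 243, 376 and 129 CPM of *Aqp5*, with 60 of the 108 UMIs of the class at day 1, 330 of 336 at day 3 and 38 of 44 at day 6. Another 48 UMIs of day 1 came from a cluster of 52 cells, at 44.9 CPM. *Ctse* was thus counted in urothelium-like cells at every day, from 10 cells at day 0 and from a mix of clusters that changed. *Aqp5* and *Emb* were higher in mesonephric-like than in prostatic-type cells at days 1, 3 and 6.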

How the data were processed

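The deposited matrices give, for each cell, unnormalized UMI counts of 31053 genes, which the authors made with Cell Ranger 3.1.0 on mm10 (GRCm38), and MULTI-seq barcode counts; Seurat 3.1.5 was named in the submitters' processing notes. Only reads assigned to a single gene are counted, which leaves near-identical paralogs uncertain. Cells were kept with 750 to 7500 genes and under 10% mitochondrial UMIs (explants, over 1000 genes and under 7.5%) and 1 barcode above the study's thresholds. The study's methods state the upper limit as 7500 UMIs; here it was applied to detected genes, and cells under 7500 UMIs alone were an alternative. Cells with several barcodes were dropped. No doublet caller was run. Clusters (3000 variable genes without the 6 members, 50 principal components, 20 neighbours, Leiden, igraph 0.11.9, without integration of runs) were rebuilt and named from markers, so classes may differ from those of the study. Not every marker is reported here. Clustering settings and a marker gate used as an alternative (355 of 4691 cells, 7.57%, lay near its threshold) were set after the data were seen.

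UMIs were summed per run, sorted population and class, with at least 10 cells, and tested with edgeR 4.0.16 in R 4.3.3 (TMM, filterByExpr, quasi-likelihood, Benjamini-Hochberg, 0.05) over 15 basal-like or 16 luminal-like sums. CPM are UMIs per 1000000 UMIs of a sum. Depth is the UMI total, and Poisson intervals and the floor of 3 UMIs cover counting error only. Castrated and explant cells have 1 library each side and no test. Alternatives were DESeq2 1.42.0, no filter, other gates, leaving out runs, run as a block and, added after seeing the data, no TMM.

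Same-numbered sums come from the same pool of mice, which pairs them. Their deviations correlated at 0.0358 to 0.612. The 6 members, the partner lists and the tests were chosen with earlier results of these data known. Named genes were the members, the called partners (at most 4 a list by size, plus *Krt13*, *Itga8*, *Bsg* and *Slc16a7*), and the 3 genes most correlated with each member. The steps were tested on counts simulated for 2 contrasts, with 200 of the better-counted genes changed 2-fold or 4-fold. For luminal-like VP RFP+ against RFP- cells, 37% of 2-fold and 96% of 4-fold changes were found, and 8.28% of calls were false. For basal-like AP RFP+ against RFP- cells the values were 27%, 98% and 12.0%. A better-counted gene not called in these contrasts may thus still differ by about 2-fold. Genes with few UMIs, among them several of the 6, were not simulated, and larger differences of these could be missed.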

Additional observations from a re-analysis of the deposited data

Results flagged for a closer look

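Some of the 6 genes were counted in adult classes that no comparison used, above their highest level in any intact basal-like sum, which served as the background. In hematopoietic-like cells *Ctse* was at 24.2 CPM in run 1 and 33.4 CPM in run 2, against a basal-like maximum of 3.91 CPM, and *Emb* at 266 and 112 CPM, against 51.4 CPM. Fibroblast-like cells held 362 CPM of *Tspan1* in run 1, in 8 of 43 cells, against a basal-like maximum of 170 CPM, and 16.5 and 0 CPM in runs 2 and 3. Mesonephric-like cells held *Tspan1* at 709 CPM in run 2 and 557 CPM in run 3, and *Aqp5* at 53.1 CPM in run 2 and 13.8 CPM in run 3, against 7.30 CPM in basal-like cells. The part of RNA from other cells in these levels was not tested.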

How the results depend on the processing

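Of the 6 genes' tests, 247 alternative values kept their direction and their side of the threshold, 11 passed it where the main fit had not and 2 no longer did. Genes called, in the order basal-like AP RFP+ against RFP-, basal-like RFP+ AP against VP, luminal-like VP RFP+ against RFP-, luminal-like RFP- AP against VP and RFP- AP against DLP, were 0, 50, 33, 1611 and 107. With run as a block (the paired fit) they were 9, 530, 89, 2290 and 370, and the block turned no call of the 6 genes other than those given with the results. With no filter 27, 237, 108 and 298 were called in all but RFP- AP against VP, and with DESeq2 97 in basal-like RFP+ AP against VP, 74 in VP RFP+ against RFP- and 165 in RFP- AP against DLP. Library totals without TMM gave 29 in basal-like RFP+ AP against VP and 5903 in RFP- AP against VP, and leaving out the 5% of cells with the most UMIs gave 1016 in the latter. Leaving out 1 run gave 0 to 49 for basal-like RFP+ AP against VP (0 without run 2, 1 without run 3), 0 to 30 for VP RFP+ against RFP- (0 without run 2 and without run 3), 500 to 1196 for RFP- AP against VP (500 without run 2, 705 without run 3), 4 to 80 for RFP- AP against DLP (4 without run 2, 14 without run 3) and, for luminal-like AP RFP+ against RFP-, 754 to 1927 against 2489 with all runs (754 without run 2, 1544 without run 3). The causes were not tested. In RFP- AP against VP, *Aqp5* was also called without run 1 (-4.24) and with no filter (-1.78).

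With cells under 7500 UMIs only, the AP RFP+ minus RFP- difference was 4.55 for *Ctse*, 4.70 for *Npnt* and 5.61 for *Emb*, from the 2 runs that kept enough cells, and *Tspan1* was at -0.33 in one of them and 1.37 in the other. With a pseudocount of 5 the difference was 2.82 for *Npnt*. Castrated minus intact was -3.72 for *Krt4* and -0.96 for *Tspan1* without the 5% of cells with the most UMIs, and -0.70 for *Tspan1* with the marker gate. For day 6 minus day 0 of the explants, leaving out those cells gave -1.32 for *Krt4* and -0.57 for *Emb*, and a pseudocount of 5 gave -1.68 for *Krt4* and -0.59 for *Ctse*. Over all assigned explant cells in place of prostatic-type cells it was 0.30 for *Tspan1* and -0.97 for *Npnt*, and turned to 0.91 for *Ctse* and 0.65 for *Emb*. The median co-detection ratio was 1.23 with the marker gate. Depth limits *Ctse* and *Npnt* most, since most of their cells held no UMI at 5000 UMIs per cell.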

Other observations

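Across 38 adult sums of at least 20 cells, which share libraries and depth, the genes most correlated with each of the 6 (Pearson's r of log2(CPM + 1) over 4862 genes) were mostly different from gene to gene. *Krt4* was most like *Atp6ap2* (0.89) and the gasdermins *Gsdmc3* (0.89) and *Gsdmc4* (0.88), and *Ctse* like *Gsdmc2* (0.87), *Gsdmc3* (0.86) and *Ihh* (0.85). *Tspan1* was most like *Prr15l* (0.96), *Pllp* (0.96) and *Pla2g16* (0.95), and *Aqp5* like *Ppp1r1b* (0.91), *Barx2* (0.87) and *Aspa* (0.87). *Npnt* was most like *Atp8b1* (0.78), *Hacd4* (0.77) and *Sprr2a3* (0.74), and *Emb* like *Mapk13* (0.73), *Cbr3* (0.68) and *Agtr1a* (0.63). Between the 6 genes themselves, r ran from 0.11 for *Ctse* with *Emb* to 0.82 for *Ctse* with *Krt4*. *Gsdmc3* was the only gene named for more than 1 of the 6, and counts of *Gsdmc2*, *Gsdmc3*, *Gsdmc4* and *Sprr2a3* are uncertain because each has close paralogs. In the explants, *Npnt* was also counted in mesenchyme-like cells, at 103, 53.7, 326 and 201 CPM at days 0, 1, 3 and 6 (27, 68, 24 and 20 cells), and in mesonephric-like cells at 167, 164, 125 and 151 CPM.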
